A study of Homo sapiens with 10 samples.

Results

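The genes described here are 9 genes of the major histocompatibility complex (MHC) class I pathway, taken by name as HLA-B, HLA-C, HLA-E, HLA-F, B2M, TAP1, TAP2, TAPBP and NLRC5. They are 9 of the 19893 genes in the count table, and all 9 were among the 13330 genes that passed a filter on low counts and were tested. They were measured by droplet single-cell RNA-seq in the human cell line Kuramochi, from a high-grade serous ovarian carcinoma with a mutated BRCA2 gene, in which olaparib blocks the DNA repair enzymes PARP1 and PARP2. The 5 conditions were populations adapted (resistant) to 320 µM olaparib, populations adapted to 10 µM, persister cells kept for 9 days at 320 µM, persister cells kept for 9 days at 10 µM, and drug-naive control cells that received no olaparib. The BRCA2 mutation is that of the line, and whether the cells of each condition kept it was not tested. The labels do not give how long the adapted populations were grown in olaparib, whether the drug was present when they were collected, or whether they are clonal. Hashtag antibodies marked the condition of each cell before all 5 conditions were mixed, in 2 replicate pools, and transcripts were counted by their unique molecular identifiers (UMIs) and added up for every condition within every pool. This gave 10 sums, n = 2 for each condition, and values below are given for pool 1 and then pool 2.

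The sums held 2038 and 1846 cells of the 320 µM adapted populations, 1831 and 1584 of the 10 µM adapted populations, 742 and 606 of the 320 µM persister cells, 300 and 263 of the 10 µM persister cells and 2435 and 2155 control cells. They ranged from 3532281 UMIs in the first 10 µM persister sum to 23189583 in the second control sum. A floor of 3 UMIs was therefore worth 0.849 and 0.801 CPM (counts per 1000000 UMIs, here of the unscaled total) in the 10 µM persister sums and 0.135 and 0.129 CPM in the control sums. Of 7 epithelial and ovarian serous markers, between 6 and 7 lay above the floor in every sum, and the keratin gene KRT18 was the highest of them everywhere (780.1 and 688 CPM in 320 µM adapted cells against 2750.3 and 2809 CPM in control cells). In edgeR's test (adjusted p under 0.05), 6 of these markers were lower in 320 µM adapted than in control cells and KRT7 was higher. In 10 µM adapted cells 4 were lower and 2 higher. In persister cells 4 were lower at 320 µM, and at 10 µM 3 were lower and 2 higher. Of all tested genes, 28.3 to 36.9% were lower in these comparisons. WT1 averaged 0.898 CPM in 320 µM adapted and 1.88 in 10 µM adapted cells, against 24.9 in control cells. Endothelial markers summed to at most 6.25 CPM in any sum. The labels do not say whether the pools stand for separate cultures. The p-values therefore rest on how far the pools lay apart, which may be technical variation.

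MHC class I molecules display short peptides from inside the cell to CD8 T cells and to natural killer cells. Each molecule pairs a heavy chain, such as HLA-B, HLA-C, HLA-E or HLA-F, with the invariant light chain beta-2-microglobulin, the product of B2M. Peptides cut by the proteasome are pumped into the endoplasmic reticulum by the transporter made of TAP1 and TAP2, and tapasin, the product of TAPBP, bridges that transporter and the empty heavy chain while a peptide is fitted. NLRC5 is a transcriptional coactivator of class I genes, and interferons and NF-kB signalling raise many genes of the pathway in most cell types. Tumours often lower some of these genes.

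Of the 9 genes, 7 lie on chromosome 6 in or beside the MHC, while B2M is on chromosome 15 (44711487 to 44718877) and NLRC5 on chromosome 16 (56989485 to 57083531), by GENCODE 29 on GRCh38. The class I heavy chain genes resemble each other closely, the HLA-B gene model overlaps that of HLA-C by 2640 bases on the same strand, and the PSMB9 gene model on the opposite strand covers all 8770 bases of TAP1. The model of AL669918.1 covers all 16948 bases of TAP2 on the same strand. How reads shared by such genes were assigned is not given in the sources used here, so the split between heavy chain genes is less certain than their sum, and the levels of TAP1 and TAP2 are uncertain too. All 5 conditions are in the same count table, but this does not make changes between them independent of such reads. PSMB9 itself averaged 401 CPM (counts per 1000000 UMIs) in 10 µM persister cells and 15.4 CPM in control cells. The part of shared reads in the changes of TAP1 and TAP2 was not tested.

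The stretches of DNA before the transcription start are shown for 5 genes because interferon-stimulated and NF-kB elements in such stretches are known to control class I genes, and because all of these genes rose in 10 µM persister cells. RefSeq promoter windows (GRCh38.p14, 250 bases before to 50 bases after the start) were found for 7 of the 9 genes, and HLA-E and NLRC5 had none in the table used. The first window is from HLA-B (chr6:31357180-31357429, minus strand), followed by B2M (chr15:44711267-44711516, plus strand), TAP1 (chr6:32853705-32853954, minus strand), TAP2 (chr6:32838740-32838989, minus strand) and TAPBP (chr6:33314079-33314328, minus strand). Each is the 250 bases before the start, 5′ to 3′ on the strand of the gene, with matches to either of 2 motifs in capitals.
HLA-B: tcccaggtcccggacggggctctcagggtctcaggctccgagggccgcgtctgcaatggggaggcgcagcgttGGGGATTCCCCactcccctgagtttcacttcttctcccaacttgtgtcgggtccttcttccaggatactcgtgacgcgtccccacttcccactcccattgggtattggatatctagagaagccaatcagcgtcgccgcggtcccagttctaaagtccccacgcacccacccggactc
B2M: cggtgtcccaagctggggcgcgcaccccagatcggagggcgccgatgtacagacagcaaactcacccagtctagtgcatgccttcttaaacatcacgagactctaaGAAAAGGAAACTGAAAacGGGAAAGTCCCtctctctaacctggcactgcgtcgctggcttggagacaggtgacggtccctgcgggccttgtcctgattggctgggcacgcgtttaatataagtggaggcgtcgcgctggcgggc
TAP1: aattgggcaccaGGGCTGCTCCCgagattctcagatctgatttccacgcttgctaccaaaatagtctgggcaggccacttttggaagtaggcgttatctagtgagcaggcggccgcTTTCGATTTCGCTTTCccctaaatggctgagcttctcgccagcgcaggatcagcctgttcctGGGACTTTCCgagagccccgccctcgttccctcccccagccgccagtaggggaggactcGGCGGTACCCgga
TAP2: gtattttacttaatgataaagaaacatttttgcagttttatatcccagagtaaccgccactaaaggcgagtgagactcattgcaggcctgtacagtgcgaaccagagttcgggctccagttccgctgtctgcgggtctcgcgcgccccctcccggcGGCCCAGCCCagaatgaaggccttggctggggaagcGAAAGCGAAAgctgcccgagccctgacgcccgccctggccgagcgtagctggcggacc
TAPBP: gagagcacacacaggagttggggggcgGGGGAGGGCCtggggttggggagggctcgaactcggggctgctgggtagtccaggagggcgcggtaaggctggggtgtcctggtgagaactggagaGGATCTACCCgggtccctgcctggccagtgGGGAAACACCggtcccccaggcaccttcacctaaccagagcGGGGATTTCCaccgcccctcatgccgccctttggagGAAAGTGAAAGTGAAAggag

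The first motif was GAAA followed by any 2 bases and GAAA again, the core of the interferon-stimulated response element, and the second was GGG, any 5 bases and CC, a loose form of the kappaB site bound by NF-kB, both searched on both strands of the whole windows. The interferon motif was present in 5 of the 7 genes with a window (HLA-F, B2M, TAP1, TAP2 and TAPBP), against 3.57% of all 35116 windows of the same length. In B2M, TAP1 and TAPBP it matched at 2 overlapping places, which in B2M lay at -144 to -135 and -138 to -129 from the start. The kappaB motif was present in 6 of the 7, all but HLA-F, but also in 58.7% of all windows. The Y box letters CCAAT were in 5 of the 7 genes against 34.6% of windows, and TGACG, a core of cyclic AMP response elements, in 4 against 24.6%. These are matches of letters and not measured binding, and sites that depart from these letters were not searched for. TAP1 had 2 windows and counted if either matched, while the background shares are of single windows.

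Among the heavy chain genes, HLA-B and HLA-C encode classical molecules that present a wide range of peptides. HLA-B stood at 354 and 348 CPM in 320 µM adapted cells and 267 and 276 in 10 µM adapted cells. It had 187 and 200.5 CPM in 320 µM persister cells, 2350.2 and 2258 in 10 µM persister cells and 85.3 and 90.5 in control cells. The pools of a condition lay close together and no 2 conditions overlapped, so that the order from high to low was 10 µM persister, 320 µM adapted, 10 µM adapted, 320 µM persister and control. HLA-C followed the same order, with 308 and 296 CPM in 320 µM adapted cells and 233 and 221 in 10 µM adapted cells. It had 146 and 138 CPM in 320 µM persister cells, 1877 and 1625 in 10 µM persister cells and 74.4 and 66.8 in control cells, again without overlap.

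HLA-E, which presents leader peptides of other class I molecules to receptors of natural killer cells, had 90.3 and 84.1 CPM in 320 µM adapted cells and 92.3 and 89.1 in 10 µM adapted cells. It had 50.1 and 46.0 CPM in 320 µM persister cells, 441 and 428 in 10 µM persister cells and 24.9 and 27.3 in control cells. The ranges of the adapted conditions overlapped each other, and every other pair of conditions was separate. HLA-F, a nonclassical molecule with low surface expression in most cells, had 3.26 and 4.41 CPM in 320 µM adapted cells and 4.44 and 4 in 10 µM adapted cells. It had 0.459 and 1.40 CPM in 320 µM persister cells, 68.1 and 65.8 in 10 µM persister cells and 0.796 and 0.848 in control cells. Its 320 µM persister values rested on 4 and 12 UMIs and enclosed the control values, which rested on 18 and 20 UMIs, while the 10 µM persister sums held 264 and 274.

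**Figure D1:**
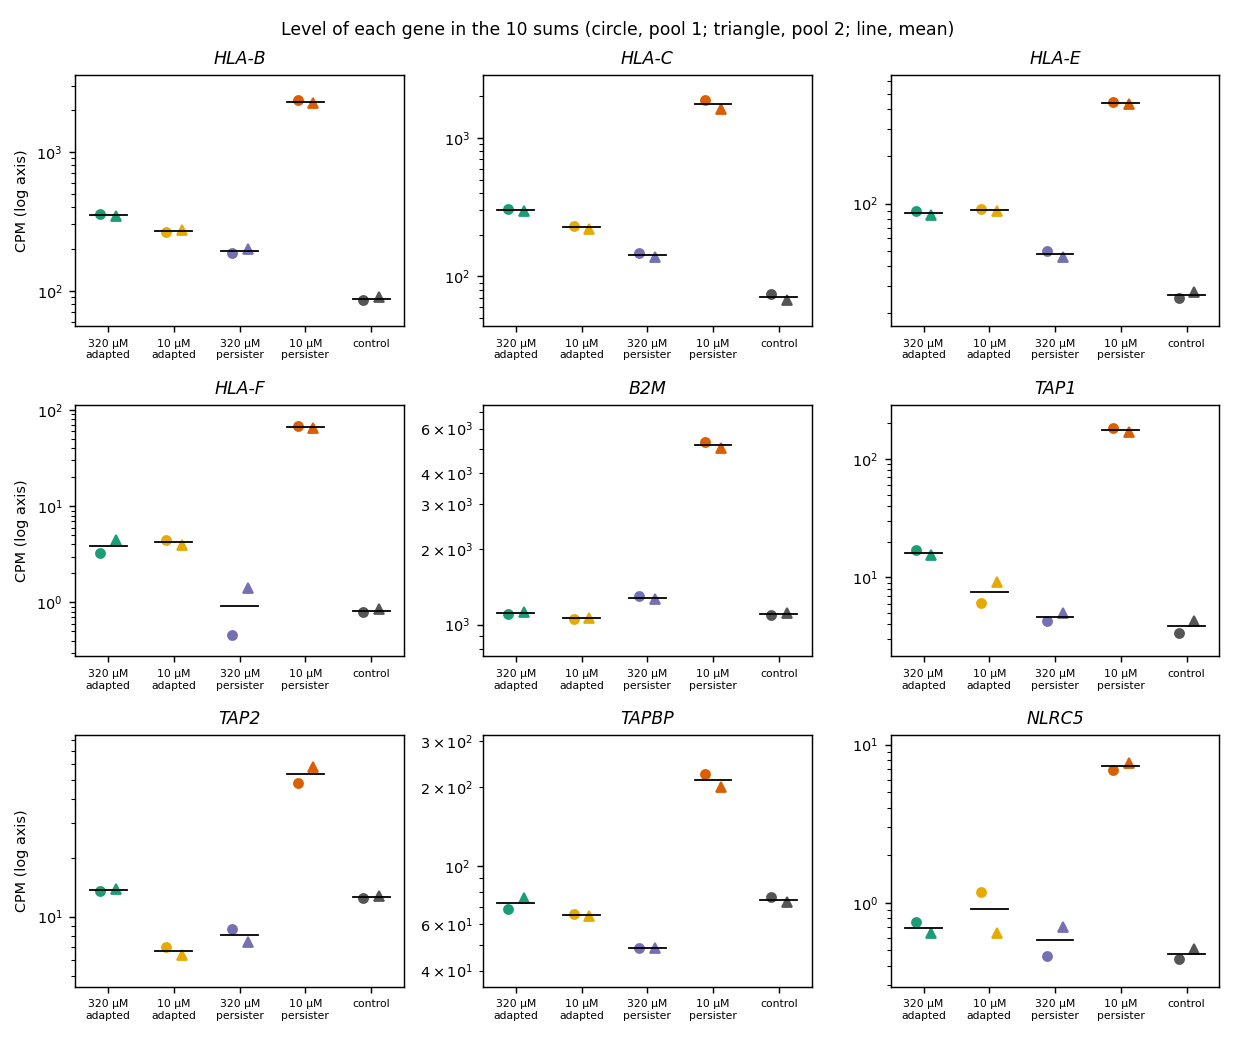
CPM of each of the 9 genes on log axes in the 320 µM adapted, 10 µM adapted, 320 µM persister, 10 µM persister and control cells, with a circle for pool 1, a triangle for pool 2 and a line at the mean of both. The 10 µM persister sums are the highest in every panel, and the B2M values of the other conditions lie between 1054 and 1297 CPM.

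B2M was the most abundant of the 9 transcripts. It stood at 1096 and 1119 CPM in 320 µM adapted cells and 1054 and 1060.4 in 10 µM adapted cells. It had 1297 and 1257 CPM in 320 µM persister cells, 5297 and 5024 in 10 µM persister cells and 1094 and 1109 in control cells. The 10 µM persister sums stood far above the rest and the 320 µM persister sums slightly above, whereas the 320 µM adapted values overlapped the control values.

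TAP1, a subunit of the peptide transporter, had 16.9 and 15.4 CPM in 320 µM adapted cells and 6.01 and 9.15 in 10 µM adapted cells. It had 4.24 and 5.01 CPM in 320 µM persister cells, 181 and 168 in 10 µM persister cells and 3.40 and 4.28 in control cells. The second pool of the 10 µM adapted cells was higher than the first, and the first 320 µM persister value lay just under the second control value. TAP2, the partner of TAP1, had 13.5 and 13.8 CPM in 320 µM adapted cells and 6.99 and 6.38 in 10 µM adapted cells. It had 8.60 and 7.45 CPM in 320 µM persister cells, 48.2 and 58.4 in 10 µM persister cells and 12.5 and 12.8 in control cells. Unlike TAP1, it lay below the control values in the 10 µM adapted and the 320 µM persister sums.

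TAPBP stood at 68.7 and 75.6 CPM in 320 µM adapted cells and 66.0 and 64.7 in 10 µM adapted cells. It had 49.0 and 48.8 CPM in 320 µM persister cells, 225 and 201 in 10 µM persister cells and 76.3 and 72.9 in control cells. Its 320 µM adapted values overlapped the control values, and its 10 µM adapted and 320 µM persister values lay below them. NLRC5 was the rarest of the 9, with 0.752 and 0.639 CPM in 320 µM adapted cells and 1.18 and 0.645 in 10 µM adapted cells. It had 0.459 and 0.699 CPM in 320 µM persister cells, 6.96 and 7.69 in 10 µM persister cells and 0.442 and 0.509 in control cells. Outside the 10 µM persister cells no NLRC5 sum rested on more than 18 UMIs, so only large differences of this gene were detectable.

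The comparison of 10 µM persister with control cells asks what accompanies survival of short exposure to the lower dose. All 9 genes rose in it, with a median log2 change of 4.06 against -0.026 for all genes tested, in a comparison where 27.3% of the tested genes rose and 29.3% fell. A gene counted as risen or fallen here and below if its Benjamini-Hochberg adjusted p in edgeR's quasi-likelihood test was under 0.05. The heavy chains and TAP1 rose most: HLA-F was 80.5-fold, TAP1 45.3-fold and HLA-B 26.2-fold higher, against 4.68-fold for B2M. The log2 change was 6.33 ± 0.176 (SE), adjusted p = 4.13e-23 for HLA-F and 5.50 ± 0.123 (SE), adjusted p = 1.50e-20 for TAP1 (edgeR). It was 4.71 ± 0.0504 (SE), adjusted p = 2.45e-33 for HLA-B, 4.63 ± 0.0732 (SE), adjusted p = 4.42e-17 for HLA-C and 4.06 ± 0.0624 (SE), adjusted p = 2.00e-29 for HLA-E. NLRC5 rose by 3.92 ± 0.353 (SE), adjusted p = 7.97e-11. B2M, TAP2 and TAPBP rose less, by 2.23 ± 0.0385 (SE), 2.08 ± 0.108 (SE) and 1.51 ± 0.0627 (SE) on the log2 scale, with adjusted p-values of 3.57e-28, 2.30e-16 and 8.17e-19 by edgeR.

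Some other measures moved with this rise. Summed CPM of 12 leukocyte markers was 12.6 and 8.41 in the 10 µM persister sums against 1.19 and 0.721 in the control sums. Of the 10 µM persister values, CD14 made up 11.3 and 6.97 CPM. The defining T cell, B cell and natural killer cell markers CD3D, CD3E, CD2, MS4A1 and NKG7 and the myeloid markers LYZ, ITGAM and CSF1R were at 0 in both 10 µM persister sums, and the pan-leukocyte gene PTPRC had 1 and 2 UMIs. Any part of the CD14 transcripts in the class I rise was not tested. A separately deposited list of cells, named for the G1 phase of the cell cycle, held 75.3 and 76.0% of the 10 µM persister cells against 42.3 and 43.5% of the control cells. Among listed cells only, the log2 changes of HLA-B, B2M and TAP1 were 4.54, 2.17 and 5.30, and among cells not on the list they were 4.71, 2.15 and 5.39. For these genes the changes were close to each other in both sets of cells. Gaps were wider for NLRC5 (3.63 in listed and 4.24 in other cells), HLA-F (6.43 and 6.09), HLA-C (4.41 and 4.69) and HLA-E (3.82 and 4.04). All 9 genes passed as higher in both sets. Of all tested genes, 3290 of 12461 passed as higher in listed cells and 2153 of 12360 in the other cells.

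**Figure D2:**
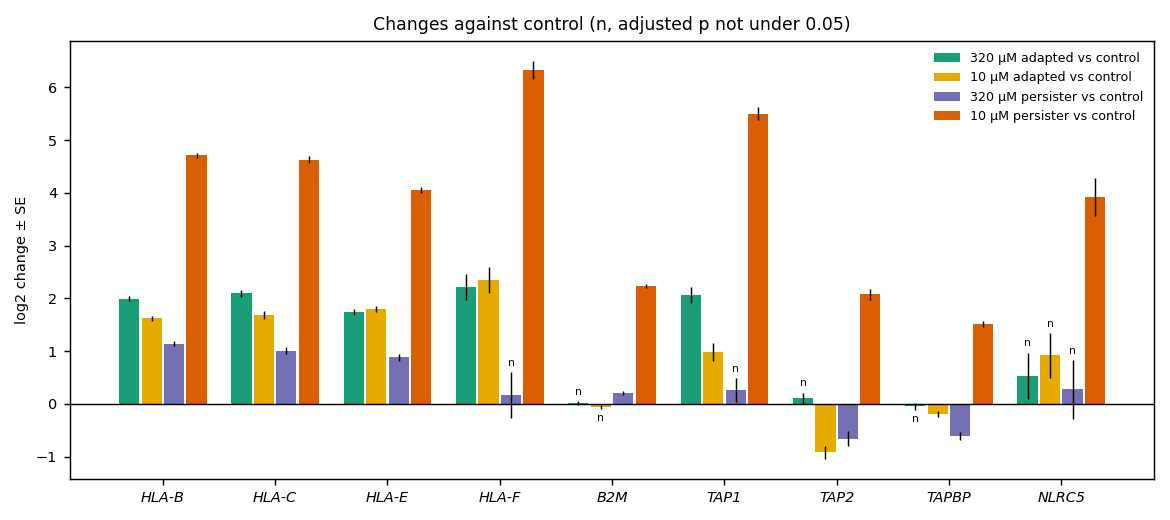
Log2 change of each gene in 320 µM adapted, 10 µM adapted, 320 µM persister and 10 µM persister cells against control cells, with n = 2 sums per condition. Error bars are 1 SE derived from edgeR's F statistic, and n marks an adjusted p that was not under 0.05. The 10 µM persister bar is the tallest for each gene, and the bars of TAP2 and TAPBP point down in 10 µM adapted and 320 µM persister cells.

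At the higher dose the persister cells differed from control cells in fewer of these genes and in both directions. Of the 9 genes, 4 rose (HLA-B, HLA-C, HLA-E and B2M), 2 fell (TAP2 and TAPBP) and 3 did not pass the test (HLA-F, TAP1 and NLRC5), while 26.3% of all tested genes rose and 28.3% fell. The median log2 change of the 9 was 0.26, against -0.013 for all genes. HLA-B rose by 1.14 ± 0.0481 (SE), adjusted p = 4.02e-18, HLA-C by 1.01 ± 0.0718 (SE), adjusted p = 1.14e-08, and HLA-E by 0.88 ± 0.0703 (SE), adjusted p = 9.41e-12 (edgeR). The rise of B2M was small, 0.21 ± 0.0371 (SE), adjusted p = 1.56e-05, and in listed cells alone its log2 change was -0.031 and did not pass the test. TAP2 fell, with a log2 change of -0.66 ± 0.136 (SE), adjusted p = 1.51e-04, and so did TAPBP, with -0.61 ± 0.0677 (SE), adjusted p = 8.06e-09 (edgeR). In cells not on the deposited list the change of TAP2 was -0.40 and did not pass. The log2 change was 0.17 ± 0.437 (SE) for HLA-F, 0.26 ± 0.226 (SE) for TAP1 and 0.27 ± 0.559 (SE) for NLRC5, with adjusted p = 0.775, 0.346 and 0.707 by edgeR.

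In the 10 µM adapted cells the heavy chains and TAP1 were higher than in control cells, while the other 4 genes did not pass as higher. HLA-B, HLA-C, HLA-E, HLA-F and TAP1 rose (5 of 9 genes, against 33.7% of all tested genes), TAP2 and TAPBP fell (2 of 9, against 33.4%), and B2M and NLRC5 did not pass. HLA-F rose by 2.34 ± 0.252 (SE), adjusted p = 2.39e-09, HLA-E by 1.80 ± 0.0615 (SE), adjusted p = 1.38e-20, HLA-C by 1.69 ± 0.0682 (SE), adjusted p = 6.36e-12, HLA-B by 1.63 ± 0.0465 (SE), adjusted p = 1.84e-22, and TAP1 by 0.98 ± 0.171 (SE), adjusted p = 3.14e-05 (edgeR). TAP2 showed the opposite direction to its partner, with a log2 change of -0.92 ± 0.121 (SE), adjusted p = 1.06e-07. TAPBP changed by -0.19 ± 0.0608 (SE), adjusted p = 0.00695, and this call was lost under 5 alternatives, including when leaving out the second 10 µM adapted sum (-0.18, adjusted p = 0.0552, edgeR) or the first control sum (-0.16, adjusted p = 0.0763). NLRC5 stood at a log2 change of 0.92 ± 0.420 (SE), adjusted p = 0.0551 (edgeR). It passed with RLE scaling (0.94, adjusted p = 0.04997, edgeR) and without the cells with the most UMIs (1.03, adjusted p = 0.0435, edgeR). Leaving out single sums gave changes between 0.42 and 1.29, the highest without the second 10 µM adapted sum. The log2 change of B2M was -0.059 ± 0.0369 (SE), and it passed as lower with library totals (-0.13), in listed cells (-0.12), with no filter on low counts (-0.092) and without the second 10 µM persister sum (-0.066, adjusted p = 0.0339, edgeR).

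Collagen and other fibroblast-type transcripts moved with the 10 µM adapted condition too: 6 such markers summed to 107 and 103 CPM in 10 µM adapted cells, mostly COL1A1 (93.6 and 90.8), against 1.15 and 1.31 CPM in control cells. Of these markers, COL1A2 had 0 and 1 UMIs in the 10 µM adapted sums. Whether these transcripts have a part in the class I levels was not tested.

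In the 320 µM adapted cells the same 5 genes rose (5 of 9, against 37.6% of all tested genes) and none of the 9 fell, against 36.9% of all tested genes. None fell by DESeq2 or at an unadjusted p under 0.05 in edgeR either. HLA-F rose by 2.22 ± 0.254 (SE), adjusted p = 5.60e-09, HLA-C by 2.10 ± 0.0681 (SE), adjusted p = 2.23e-13, TAP1 by 2.07 ± 0.146 (SE), adjusted p = 1.61e-11, HLA-B by 2.00 ± 0.0464 (SE), adjusted p = 4.30e-25, and HLA-E by 1.74 ± 0.0614 (SE), adjusted p = 1.05e-20 (edgeR). B2M, TAP2, TAPBP and NLRC5 had log2 changes of 0.0081 ± 0.0369 (SE), 0.11 ± 0.104 (SE), -0.048 ± 0.0599 (SE) and 0.53 ± 0.440 (SE), none of which passed. Scaling by library totals alone shifted the median of all genes by -0.23 in this comparison, and with it B2M, whose direction turned, and TAPBP passed as lower (-0.22 and -0.27). All 4 comparisons with control cells share the same 2 control sums, and the comparisons below share sums with them, so their values are given side by side and were not set against each other.

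Adapted cells were also compared with persister cells of the same dose, which sets the resistant populations against cells kept for 9 days in olaparib. At 10 µM all 9 genes were lower in adapted cells (against 29.3% of all tested genes, while 31.4% were higher), with a median log2 change of -3.00. TAP1 and HLA-F fell most, with log2 changes of -4.52 ± 0.118 (SE), adjusted p = 2.85e-19, and -3.99 ± 0.146 (SE), adjusted p = 3.50e-20 (edgeR). HLA-B changed by -3.09, NLRC5 by -3.00, TAP2 by -3.00, HLA-C by -2.95, B2M by -2.29, HLA-E by -2.26 and TAPBP by -1.70 on the log2 scale.

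At 320 µM the direction was the other way for most of them. Of the 9 genes, 7 were higher in adapted than in persister cells (against 34.1% of all tested genes), B2M was lower (1 of 9, against 32.6%) and NLRC5 did not pass. HLA-F rose by 2.05 ± 0.33 (SE), adjusted p = 3.58e-06, TAP1 by 1.80 ± 0.182 (SE), adjusted p = 1.03e-08, and HLA-C by 1.09 ± 0.0685 (SE), adjusted p = 1.39e-09 (edgeR). HLA-B rose by 0.86, HLA-E by 0.86, TAP2 by 0.76 and TAPBP by 0.56. B2M changed by -0.21 ± 0.0372 (SE), adjusted p = 1.81e-05, and in listed cells alone by -0.029, which did not pass.

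**Figure D3:**
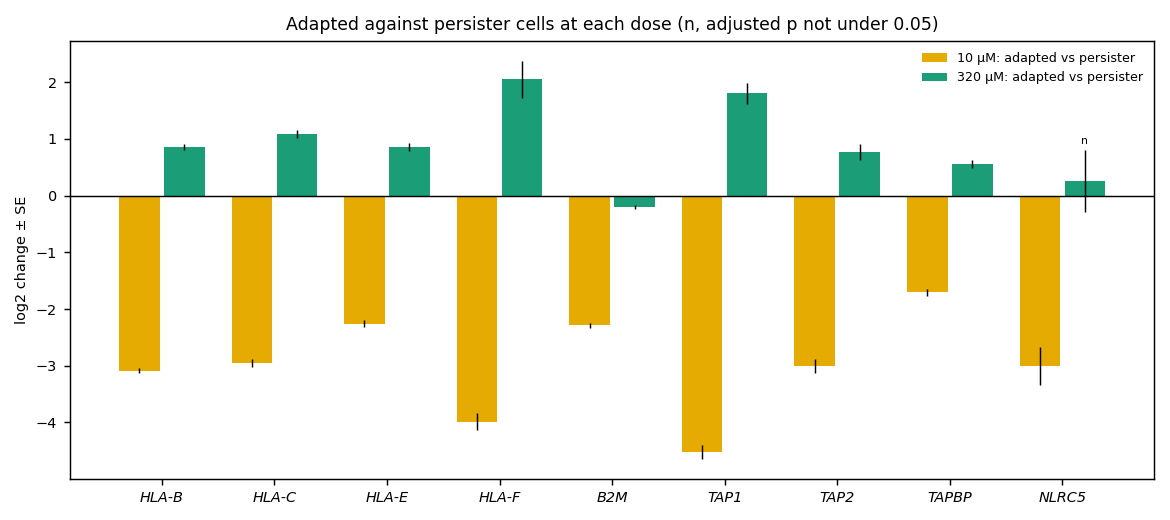
Log2 change of each gene in adapted against persister cells at 10 µM and at 320 µM (n = 2 sums per condition). Error bars are 1 SE derived from edgeR's F statistic, and n marks an adjusted p that was not under 0.05. The 10 µM bars all point down, by 1.70 to 4.52, and the 320 µM bars point up except that of B2M; the NLRC5 bar at 320 µM did not pass, and its sign turned when scaled to library totals (-0.019).

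The difference between the doses was itself tested, as the adapted against persister change at 10 µM minus that at 320 µM. It was negative and passed the test for all 9 genes, against 23.4% of all tested genes (25.9% were positive), with a median of -3.76 on the log2 scale. TAP1 differed by -6.33 ± 0.207 (SE), adjusted p = 5.45e-17, and HLA-F by -6.03 ± 0.332 (SE), adjusted p = 2.32e-15 (edgeR), which were the largest of the 9, while B2M differed least, by -2.08 ± 0.0529 (SE), adjusted p = 1.41e-23.

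Between the doses of persister cells, all 9 genes were lower at 320 µM than at 10 µM (against 24.4% of all tested genes, while 25.3% were higher), with a median log2 change of -3.57. HLA-F changed by -6.16 ± 0.216 (SE), adjusted p = 1.75e-20, TAP1 by -5.24 ± 0.144 (SE), adjusted p = 1.01e-18, and HLA-C by -3.62 ± 0.0715 (SE), adjusted p = 1.21e-15 (edgeR). HLA-B changed by -3.57, NLRC5 by -3.65, HLA-E by -3.18, TAP2 by -2.73, TAPBP by -2.12 and B2M by -2.01. Between the doses of adapted cells the differences were smaller. Of the 9 genes, 5 were higher at 320 µM (against 33.4% of all tested genes) and none was lower (against 32.4%), also at an unadjusted p under 0.05 in edgeR and by DESeq2, but HLA-E passed as lower in thinned cells (-0.22, adjusted p = 0.0223) and with library totals (-0.21, adjusted p = 0.00114). Both subunits of the transporter rose, TAP1 by 1.09 ± 0.139 (SE), adjusted p = 5.16e-07, and TAP2 by 1.03 ± 0.125 (SE), adjusted p = 2.99e-08 (edgeR). HLA-C rose by 0.41 ± 0.0642 (SE), adjusted p = 4.50e-05, HLA-B by 0.37 ± 0.0441 (SE), adjusted p = 1.91e-08, and TAPBP by 0.14 ± 0.0622 (SE), adjusted p = 0.0440. The TAPBP call was lost under 11 alternatives, with its sign turned by scaling to library totals (-0.013), and also when leaving out either 10 µM adapted sum (0.16, adjusted p = 0.0842, without the first, and 0.13, adjusted p = 0.170, without the second), the second 320 µM adapted sum (0.079, adjusted p = 0.392), the first control sum (0.14, adjusted p = 0.0546) or the second (0.15, adjusted p = 0.0523). HLA-E, HLA-F, B2M and NLRC5 did not pass, with log2 changes of -0.058 ± 0.0565 (SE), -0.13 ± 0.196 (SE), 0.068 ± 0.0370 (SE) and -0.39 ± 0.417 (SE). With the pool as a replicate block, B2M passed as higher (0.068, adjusted p = 0.0308, edgeR), and with library totals alone as lower (-0.089, adjusted p = 0.0294).

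The proportion of heavy chain to B2M transcripts differed between conditions. Summed UMIs of HLA-B, HLA-C, HLA-E and HLA-F per 100 B2M UMIs were 69.0 and 65.5 in 320 µM adapted cells, 56.6 and 55.7 in 10 µM adapted cells, 29.6 and 30.7 in 320 µM persister cells, 89.4 and 87.1 in 10 µM persister cells and 17.0 and 16.7 in control cells. The conditions did not overlap, and all treated or adapted sums lay above the control sums. TAP1 UMIs per 100 TAP2 UMIs were 125 and 112 in 320 µM adapted cells, 86.0 and 143 in 10 µM adapted cells, 49.3 and 67.2 in 320 µM persister cells, 376 and 288 in 10 µM persister cells and 27.2 and 33.4 in control cells. These ratios were again lowest in control and highest in 10 µM persister cells, with overlapping values in the adapted conditions, where the 10 µM sums rested on 92 and 142 TAP1 UMIs. Reads shared with the overlapping genes named above bear on both terms of this ratio. No test was run on these ratios; with 2 sums a side, a two-sided exact permutation test could give no p below 0.33.

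**Figure D4:**
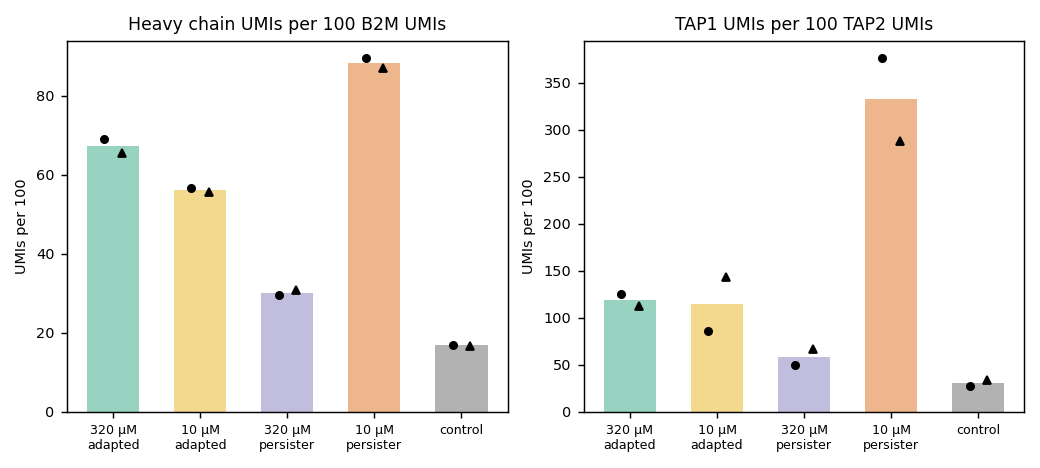
Heavy chain UMIs per 100 B2M UMIs (left) and TAP1 UMIs per 100 TAP2 UMIs (right) in 320 µM adapted, 10 µM adapted, 320 µM persister, 10 µM persister and control cells; bars are the mean of both pools, circles pool 1 and triangles pool 2. Control bars are the lowest in both panels, at 16.8 and 30.3 UMIs per 100.

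The distribution over single cells was read after each cell was thinned to 3000 UMIs. This left out 207 cells with fewer UMIs (19 and 16 of the 320 µM adapted, 35 and 21 of the 10 µM adapted, 15 and 20 of the 320 µM persister, 27 and 25 of the 10 µM persister and 11 and 18 of the control cells). The median cell held 2 and 2 heavy chain UMIs in 320 µM adapted cells, 1 and 2 in 10 µM adapted cells, 1 and 1 in 320 µM persister cells, 15 and 13.5 in 10 µM persister cells and 0 and 0 in control cells. The 10th percentile of the 10 µM persister cells was 5 UMIs in both pools, and lay above the 90th percentile of control cells, which was 2 in both. At least 10 heavy chain UMIs were found in 73.6 and 71.4% of 10 µM persister cells against 0.0413 and 0.0468% of control cells, and the highest 320 µM persister cells held 8 and 6. Cells without any heavy chain UMI made up 17.8 and 18.6% in 320 µM adapted cells, 24.9 and 24.8% in 10 µM adapted cells, 37.0 and 38.9% in 320 µM persister cells, 1.47 and 0.420% in 10 µM persister cells and 62.4 and 63.2% in control cells.

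**Figure D5:**
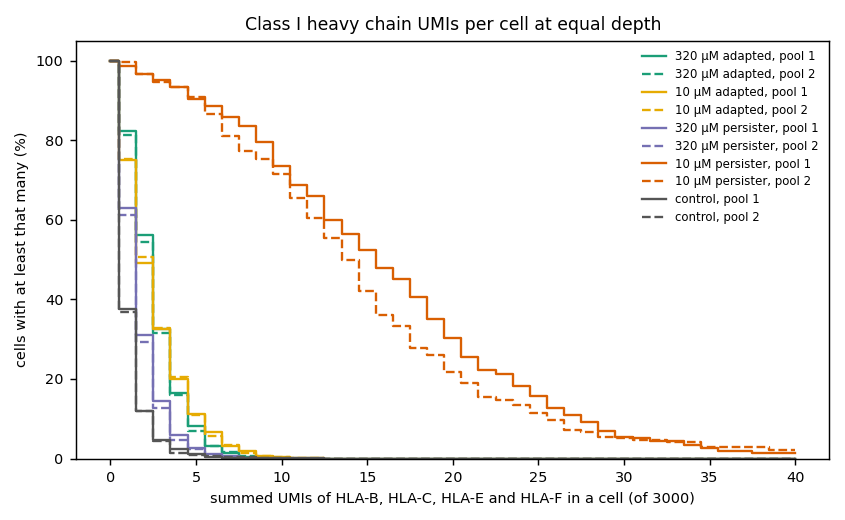
Percentage of cells (y axis) with at least a given number of summed HLA-B, HLA-C, HLA-E and HLA-F UMIs (x axis) after thinning to 3000 UMIs per cell, in 320 µM adapted, 10 µM adapted, 320 µM persister, 10 µM persister and control cells; solid lines are pool 1 and dashed lines pool 2. The 10 µM persister curves fall off slowly, with 73.6% and 71.4% of cells at 10 UMIs or more, while 37.6% and 36.8% of control cells hold 1 UMI or more.

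Shares of cells with a UMI followed the same lines. HLA-B was found in 57.7 ± 0.548% of 320 µM adapted cells, 51.6 ± 1.65% of 10 µM adapted cells, 39.5 ± 2.02% of 320 µM persister cells, 96.7 ± 0.510% of 10 µM persister cells and 21.2 ± 0.332% of control cells (mean ± SD of n = 2 pools, thinned cells). Without thinning, at median depths of 8131 to 15213 UMIs per cell, HLA-B was found in 88.0 ± 2.18% of the cells adapted to 320 µM and in 79.9 ± 2.96% of those adapted to 10 µM. Its unthinned share was 77.1 ± 2.81% in 320 µM persister cells, 96.6 ± 0.0627% in 10 µM persister cells and 48.2 ± 3.17% in control cells. TAP1 was found in 4.36 ± 0.983% of 320 µM adapted cells, 2.46 ± 0.957% of 10 µM adapted cells, 1.90 ± 0.0344% of 320 µM persister cells, 41.3 ± 0.708% of 10 µM persister cells and 1.17 ± 0.197% of thinned control cells, and B2M in at least 92.5 ± 0.439% of the cells of every condition, with 93.9 ± 0.136% in control cells. Unthinned, TAP1 was found in 73.5 ± 0.305% of 10 µM persister cells and 3.63 ± 0.775% of control cells. Cells of all conditions shared the free RNA of their pool, and no cell type in the pools lacks class I genes, so the control share, which holds the cells' own transcripts too, is given beside each share as the background.

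Genes that act before and around peptide loading were read from lists written from general knowledge. Peptide supply comprised the immunoproteasome subunits PSMB8, PSMB9 and PSMB10, the proteasome activators PSME1 and PSME2 and the trimming peptidases ERAP1 and ERAP2. In 10 µM persister against control cells 7 of these 7 genes rose (against 27.3% of all tested genes), with a median log2 change of 1.48. PSMB9 rose by 4.70 ± 0.0743 (SE), adjusted p = 3.55e-29 (edgeR), to 427 and 375 CPM against 14.9 and 15.9 in control cells. PSMB8 rose by 2.99 and PSME2 by 1.15. In 320 µM persister against control cells all 7 fell (against 28.3% of all tested genes), with a median of -0.91, among them PSME2 with -0.91, PSME1 with -0.71 and PSMB10 with -1.26. In 320 µM adapted against control cells PSMB9 alone rose (1.60; 1 of 7, against 37.6% of all tested genes) and 4 fell (against 36.9%), among them PSME2 (-1.11). In 10 µM adapted cells PSMB9 alone rose (1.14; 1 of 7, against 33.7%) and 2 fell (against 33.4%), among them PSME2 (-0.34). PSMB9 lies opposite TAP1, and reads of these overlapping genes can be told apart only if strand was used in counting.

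Constitutive proteasome genes were represented by PSMB5, PSMB6 and PSMB7 and the activator PSME3. In 10 µM persister against control cells 2 of these 4 rose and 2 fell (against 27.3% and 29.3% of all tested genes), with PSME3 at 0.63 and PSMB6 at -0.20. In 320 µM persister cells 3 fell (against 28.3%), with PSMB6 at -0.39. In 10 µM adapted cells 2 rose and 1 fell (against 33.7% and 33.4%). In 320 µM adapted cells 2 rose and 2 fell (against 37.6% and 36.9%), with PSMB5 at -0.77 on the log2 scale and PSMB7 at 0.39.

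The loading chaperones were calreticulin (CALR), calnexin (CANX), the disulfide isomerase PDIA3 and the tapasin relative TAPBPL, which edits peptides. In 10 µM persister against control cells 3 of the 4 rose (against 27.3% of all tested genes), TAPBPL by 2.38, PDIA3 by 0.38 and CALR by 0.25. In 320 µM persister cells CALR (-0.60) and PDIA3 (-0.48) fell (2 of 4, against 28.3%) and none rose, also at an unadjusted p under 0.05. In 10 µM adapted cells 3 rose (against 33.7%), among them PDIA3 (0.48) and CANX (0.30). In 320 µM adapted cells CANX (0.56) and PDIA3 (0.24) rose (2 of 4, against 37.6%).

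Transcription factors and chromatin regulators of class I genes made a list of 13. In 10 µM persister against control cells 9 of them rose and 2 fell (against 27.3% and 29.3% of all tested genes), with a median log2 change of 1.06. STAT2, a factor of type I interferon signalling, had 26.8 and 33.9 CPM in 10 µM persister cells against 6.90 and 5.98 in control cells and rose by 2.24 ± 0.143 (SE), adjusted p = 2.94e-14 (edgeR). RFXANK, a subunit of the RFX complex that binds class I promoters, rose by 0.84. In 320 µM persister cells 3 of the 13 rose and 7 fell (against 26.3% and 28.3%). Those that fell included the repressive histone methyltransferase EZH2 (-1.30) and the NF-kB subunit NFKB1 (-1.05). In 10 µM persister against control cells EZH2 fell as well (-1.37), while NFKB1 rose (1.06). For that comparison both are named after their values were seen.

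In 10 µM adapted against control cells 2 of the 13 rose and 7 fell (against 33.7% and 33.4% of all tested genes), with NFKB1 at -0.93 and CREB1, a factor that binds cyclic AMP response elements, at -0.73. In 320 µM adapted cells 2 rose and 8 fell (against 37.6% and 36.9%), with EZH2 at -1.15 and NFKB1 at -1.14.

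Of 5 class I-like genes 4 were tested. HLA-G, a nonclassical molecule known from the placenta, had 21.4 and 15.1 CPM in 10 µM persister cells against 1.55 and 1.02 in control cells. It rose by 3.82 there. MR1, which presents vitamin metabolites, rose by 1.80 there and by 0.86 in 320 µM persister cells. For adapted cells MR1 is named after its values were seen: it rose at 10 µM (0.58) and fell at 320 µM (-1.83). Of the 4 genes, 2 rose and 1 fell in 10 µM persister cells (against 27.3% and 29.3% of all tested genes). In 320 µM persister cells 2 rose and 2 fell (against 26.3% and 28.3%). In 10 µM adapted cells 3 rose (against 33.7%). In 320 µM adapted cells 1 rose and 1 fell (against 37.6% and 36.9%). FCGRT, the neonatal Fc receptor, which also pairs with beta-2-microglobulin, followed another course. It had 53.3 and 52.6 CPM in 320 µM adapted cells and 131 and 134 in 10 µM adapted cells. It had 16.2 and 13.9 CPM in 320 µM persister cells, 13.9 and 11.1 in 10 µM persister cells and 29.1 and 29 in control cells. It rose in both adapted conditions (0.86 at 320 µM and 2.19 at 10 µM against control) and fell in both persister conditions (-0.95 at 320 µM and -1.22 at 10 µM).

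Ligands of NKG2D, an activating receptor of natural killer cells, were tested for 4 of 8 listed genes, and none of them fell against control in any condition, also at an unadjusted p under 0.05 in edgeR. Of the 4, 3 rose in 320 µM adapted cells (against 37.6% of all tested genes), 4 in 10 µM adapted cells (against 33.7%), 4 in 320 µM persister cells (against 26.3%) and 3 in 10 µM persister cells (against 27.3%). MICA had 51.5 and 48.7 CPM in 320 µM adapted cells and 33.7 and 34.0 in 10 µM adapted cells. It had 20.6 and 27.8 CPM in 320 µM persister cells, 28.4 and 28.1 in 10 µM persister cells and 20.4 and 19.6 in control cells. It rose against control by 1.32 in 320 µM adapted, 0.76 in 10 µM adapted and 0.50 in 10 µM persister cells. Its call in 320 µM persister cells (0.28 ± 0.10 (SE), adjusted p = 0.0210, edgeR) came from the second sum, while the first lay beside the control values. ULBP2 rose by 2.48 in 320 µM adapted cells, and MICB by 1.14 in 10 µM adapted cells and 1.21 in 10 µM persister cells. SUSD6, TMEM127 and WWP2 together mark class I molecules for degradation. In 10 µM persister cells 2 of the 3 rose (against 27.3%), SUSD6 by 1.58 and TMEM127 by 1.35. In 320 µM persister cells 2 rose (against 26.3%), among them TMEM127 by 1.09, and 1 fell (against 28.3%), WWP2 with a log2 change of -0.77 ± 0.198 (SE), adjusted p = 0.00160 (edgeR), which is named after its value was seen. In 10 µM adapted cells 1 of the 3 rose (against 33.7%), and in 320 µM adapted cells 1 fell (against 36.9%).

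The 9 genes did not all follow the same course. Across the 10 sums, the log2 level of each was correlated with the mean of the other 8, as a description over sums that share pools and conditions. The correlation was highest for TAP1 (0.986) and HLA-B (0.976) and lowest for TAP2 (0.86), TAPBP (0.919) and B2M (0.924). Other genes were ranked by how closely their levels followed the mean of the 9. Genes of the pathway and marker lists, PSMB9 among them, were left out of this ranking. Of the 5414 genes ranked, each with a mean of at least 20 CPM over the sums, the cytokine gene IL6 came first (r = 0.993 over 10 sums). After it came TNIP1, an inhibitor of NF-kB signalling (0.988), the macrophage growth factor CSF1 (0.985), the RNA-binding protein ZNFX1 (0.981) and the interferon-induced IFI35 (0.979). IL6 averaged 6.09 ± 1.08 CPM in 320 µM adapted cells, 5.16 ± 1.56 in 10 µM adapted cells, 3.18 ± 0.280 in 320 µM persister cells, 139.9 ± 10.1 in 10 µM persister cells and 2.37 ± 0.543 in control cells (SD, n = 2). TNIP1 averaged 129 ± 10.1 CPM in 10 µM persister cells and 37.1 ± 1.06 in control cells, with its other means between 39.0 and 54.4 CPM. For IL6 and TNIP1, as for the 9 genes, the 10 µM persister sums stood apart from all others.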

How the data were processed

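Droplet single-cell RNA-seq of hashtagged Kuramochi cells gave 10 libraries (8 of expression and 2 of hashtags) from 2 pools, each holding all 5 conditions; kit version 3.1 was used, per the labels' protocols. The authors deposited a table of raw UMI counts for 19893 genes in 13800 cells, with condition and pool written in each cell name, and a list of 7762 of the cells (56.2%) with a UMI count each. These counts equal the totals in the table for 37 cells and were not used. Cell Ranger 3.1, Seurat and GRCh38 are named in the submitters' processing notes. How reads of similar or overlapping genes were counted, how hashtags and doublets were called, and how cells were filtered is not given in the sources used here; every cell had at least 502 genes, and 13 barcodes occurred in both pools.

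UMI counts were added up within every condition and pool. Sums of 1 condition differed between pools beyond counting noise (chi-square per degree of freedom 2.18 to 3.37), so both were kept. The 10 sums were fitted together with edgeR 4.0.16 (robust quasi-likelihood F test, TMM scaling with factors of 0.869 to 1.11, filterByExpr, 5 residual degrees of freedom, biological coefficient of variation 4.39%), with Benjamini-Hochberg adjustment over 13330 genes, on R 4.3.3. CPM values use TMM-scaled totals, and fitted log2 changes shrink slightly towards 0 for genes with few UMIs. Each SE was derived as the size of the log2 change divided by the square root of edgeR's F statistic. Across 2730 genes with at least 50 CPM, pool differences correlated between conditions (r 0.33 to 0.61), so the pool number pairs the sums and a fit with it as a replicate block was an alternative. The other alternatives were RLE scaling, library totals, no filter, DESeq2 1.42.0, only the sums compared, listed cells, cells outside the list (added after seeing the data), thinning to 3000 UMIs, leaving out the 5% of cells with the most UMIs, and leaving out each sum. Scripts were tested on simulated data. No doublet caller was run.

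The 9 genes, the pathway lists, markers and motifs were chosen with earlier results of these data known. Of the pathway lists, up to 3 genes per list and comparison with control are named. They are those of lowest adjusted p with at least 10 CPM in the higher condition. Genes named after their values were seen are marked as such. The 5 genes of most similar pattern are named too, taken from genes outside the 9 and outside the pathway and marker lists. A gene of the list of regulators is not reported here by name. Intervals are not given for sums; the floor of 3 UMIs covers counting error only. Promoter windows and motifs are from RefSeq on GRCh38.p14 and gene positions from GENCODE 29 on GRCh38.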

Additional observations from a re-analysis of the deposited data

Results flagged for a closer look

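For all 9 genes the change of adapted against persister cells differed between the doses by the test of the difference itself (10 µM minus 320 µM, edgeR's quasi-likelihood test, n = 2 sums per condition). At 10 µM each gene was lower in adapted cells in both pools, and at 320 µM HLA-B, HLA-C, HLA-E, HLA-F, TAP1, TAP2 and TAPBP were higher in both pools. HLA-B differed by -3.94 ± 0.0649 (SE) on the log2 scale, from a change of -3.09 at 10 µM and 0.86 at 320 µM. HLA-C differed by -4.03 ± 0.0952 (SE), with -2.95 at 10 µM and 1.09 at 320 µM, and HLA-E by -3.12 ± 0.0855 (SE), with -2.26 at 10 µM and 0.86 at 320 µM. The difference was -6.03 ± 0.332 (SE) for HLA-F, whose 320 µM persister sums held 4 and 12 UMIs. It was -6.33 ± 0.207 (SE) for TAP1, -3.76 ± 0.183 (SE) for TAP2 and -2.27 ± 0.0942 (SE) for TAPBP. B2M fell in adapted cells at both doses, more at 10 µM (-2.29) than at 320 µM (-0.21), a difference of -2.08 ± 0.0529 (SE). NLRC5 differed by -3.26 ± 0.629 (SE), with an adjusted p of 7.23e-05, on sums of 4 to 32 UMIs. All 9 differences passed under every alternative fit.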

How the results depend on the processing

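The 9 genes in 9 contrasts gave 81 results, of which 67 passed the test; 61 of the 67 kept their direction and call under all 20 alternative settings. Members called numbered 9 in every setting for 10 µM persister against control, 10 µM adapted against 10 µM persister, 320 µM against 10 µM persister, and the difference between doses. They numbered 5 to 6 of 9 for 320 µM persister against control, 6 to 8 for 10 µM adapted against control, 5 to 7 for 320 µM adapted against control, 7 to 8 for 320 µM adapted against 320 µM persister, and 4 to 6 between the adapted doses. In the unaltered fit, 7282 of all 13330 genes were called for 320 µM persister against control and 8941 for 10 µM adapted against control. For 320 µM adapted cells 9930 were called against control and 8891 against 320 µM persister cells, and 8766 between the adapted doses. The called share of the 9 genes lay below that of all genes for 320 µM adapted against control and between the adapted doses. It lay above in the other contrasts. With the pool as a replicate block the only call of the 9 genes to change was that of B2M between the adapted doses (0.068, adjusted p = 0.0308, edgeR). Leaving out single sums moved the 10 µM persister against control changes of HLA-B between 4.67 and 4.75 and of HLA-F between 6.29 and 6.37. The values whose sign turned were all small or of few UMIs, and in the unaltered fit none of them except B2M in 320 µM persister against control and TAPBP between the adapted doses had passed. In 320 µM persister against control they were B2M (-0.031) and NLRC5 (-0.39) in listed cells, HLA-F (-0.53) in thinned cells and TAP1 (-0.32) in cells outside the list. Leaving out single sums gave HLA-F between -0.82 and 0.76 and NLRC5 between -0.041 and 0.55 there. In 10 µM adapted against control, B2M was 0.041 in thinned cells. In 320 µM adapted against control, library totals gave B2M -0.22 and TAP2 -0.12, listed cells B2M -0.060 and NLRC5 -0.26, thinned cells B2M -0.0036, TAP2 -0.045 and TAPBP 0.016, and leaving out the cells with most UMIs B2M -0.0035. Leaving out single sums gave TAPBP between -0.11 and 0.016 and B2M between -0.0036 and 0.020 there. In 320 µM adapted against 320 µM persister, NLRC5 was -0.019 with library totals, -0.16 in cells outside the list, and between -0.018 and 0.57 without single sums. Between the adapted doses, library totals gave B2M -0.089 and TAPBP -0.013, thinned cells B2M -0.045 and NLRC5 0.11, and leaving out single sums NLRC5 between -0.75 and 0.11 and HLA-F between -0.37 and 0.066. HLA-E between the adapted doses passed as lower with library totals (-0.21) and in thinned cells (-0.22). TAP2 in 320 µM adapted against persister was 0.49 in cells outside the list and did not pass (adjusted p = 0.0505, edgeR). The cause of these changes was not tested. Library totals shifted the median of all genes by 0.12 in 10 µM persister against control, -0.23 in 320 µM adapted against control, -0.19 and -0.28 in adapted against persister cells at 10 µM and 320 µM, and -0.16 between the adapted doses. Of 45 shares of cells with a UMI, 43 moved by more than the spread between pools without thinning and 20 in listed cells alone. With 263 to 300 cells, the 10 µM persister sums are the shallowest, and NLRC5 and HLA-F outside them rest on few UMIs.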
